A study of Mus musculus with 4 samples.

Results

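Stem spermatogonia carry surface proteins by which they hold to the basement membrane and to their neighbours, and which are used to sort them. The transcripts of 9 such molecules were followed here: Epcam, Mpzl2, Mcam, Itga6, Itgb1, Cd9, Thy1, Cdh1 and Cd24a. They were chosen by name, as surface adhesion molecules known from stem spermatogonia, with earlier results of these data known. All 9 were found by symbol among the 27514 genes listed for all 4 libraries. The libraries came from single-cell RNA-sequencing of undifferentiated spermatogonia (A_undiff), the stem and progenitor cells of the male germline, flow sorted from adult C57BL/6J mice aged 6-8 weeks. CTRL libraries were from untreated mice, and BU libraries from mice taken 10 days (D10) after a single 10 mg/kg dose of busulfan, an alkylating drug that depletes spermatogonia. There were 2 libraries per group, 1 of each group in each of 2 experiments, and each library pooled cells of 3 mice.

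The gate itself was set on adhesion molecules. Sorted cells were positive for E-Cadherin protein (encoded by Cdh1) and α6-integrin protein (encoded by Itga6) and negative for c-KIT protein (encoded by Kit), so the sort set the presence of the first pair of proteins, and cells with Kit transcripts are cells that passed a c-KIT-negative gate. Kit transcripts mark differentiating spermatogonia, Gfra1 encodes the co-receptor for GDNF and marks stem-like A_undiff, and Sox3 encodes a transcription factor of progenitors. Of 9229 cells, the 7493 with more than 1000 detected genes and a mitochondrial share of UMIs below 20% were kept, and a cell was called Gfra1+, Sox3+ or Kit+ where the natural log of 1 plus its UMIs of that gene per 100000 was above 2.

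As background, integrins are dimers of an alpha and a beta subunit. Those with a beta1 subunit (Itgb1) bind matrix proteins, and α6β1 is a laminin receptor through which spermatogonia attach to the basement membrane of the seminiferous tubule. Cadherins such as Cdh1 join like cells through calcium-dependent contacts that are linked to actin by catenins. EPCAM is a transmembrane glycoprotein of epithelia, germ cells and stem cells that mediates cell contact and can be cleaved to release an intracellular signalling fragment. MPZL2 (epithelial V-like antigen), MCAM (CD146) and THY1 (CD90) belong to the immunoglobulin superfamily. CD9 is a tetraspanin that organises integrins in the membrane, and CD24 is a small, heavily glycosylated protein anchored by a lipid.

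Epcam (ENSMUSG00000045394) starts at position 87635979 of chromosome 17 in GENCODE M21 (GRCm38). Thy1 (chromosome 9, 44043384-44048579), Mcam (chromosome 9, 44134469-44142727) and Mpzl2 (chromosome 9, 45039799-45054015) lie on the plus strand within 1010632 bases of each other. Gene models on the opposite strand overlap Mpzl2, Itga6, Cd9 and Mcam, and 2 on the same strand (Gm13663 and Gm13662) overlap Itga6, so UMIs of these members may include or lack some that belong to a neighbour. RefSeq (GRCm38.p6) promoters, from 250 bases before to 50 bases from the start on, were matched for 4 of the 9 members. Those of Epcam and Mcam are shown because both transcripts were lower in Sox3+ than in Gfra1+ cells, while of the pair only Epcam was called after busulfan. Capitals mark CAGGTG (an E-box that SNAI and ZEB repressors bind), CACGTG (a further E-box), or their reverse complements, in Epcam (chr17:87635729-87636028, plus strand), and GGGCGG (the GC box of SP factors) or TGACGTCA (the cyclic AMP response element) in Mcam (chr9:44134408-44134707, plus strand), on either strand.
Epcam: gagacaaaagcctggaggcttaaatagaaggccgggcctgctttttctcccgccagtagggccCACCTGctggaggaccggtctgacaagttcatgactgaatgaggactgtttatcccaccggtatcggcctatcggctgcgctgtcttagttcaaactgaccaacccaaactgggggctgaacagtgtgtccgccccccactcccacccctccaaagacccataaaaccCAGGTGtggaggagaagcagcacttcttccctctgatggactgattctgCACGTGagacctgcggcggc
Mcam: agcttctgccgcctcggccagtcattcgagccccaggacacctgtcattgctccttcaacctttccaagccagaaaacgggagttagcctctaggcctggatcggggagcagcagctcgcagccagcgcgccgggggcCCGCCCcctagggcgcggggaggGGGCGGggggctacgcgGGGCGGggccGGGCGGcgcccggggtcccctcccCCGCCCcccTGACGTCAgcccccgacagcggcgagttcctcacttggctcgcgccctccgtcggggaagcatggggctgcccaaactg
The Epcam promoter held CAGGTG 2 times, at -187 and -19 from the start, and CACGTG 1 time, at 30. The Mcam promoter held GGGCGG 5 times and TGACGTCA 1 time, at -29. Places are counted from the RefSeq start. For Mcam the GENCODE M21 start given above (44134469) lies inside the window shown, before its marked matches, so the 2 sources differ in where Mcam starts. Left in lower case are 1 GGGCGG in Epcam, at -58, and 1 CAGGTG in Mcam, at -212, so CAGGTG and GGGCGG (on either strand) were found in both promoters. Of 32851 promoters, 20.2% held CAGGTG, 7.15% CACGTG, 35.7% GGGCGG and 1.79% TGACGTCA, so among these letters TGACGTCA in Mcam was the least common. A match is a run of letters and not a measured binding site.

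Depth differed between the experiments more than between the groups. Kept cells had a median of 8066 UMIs in CTRL 1, 9858 in BU 1, 30931 in CTRL 2 and 34177 in BU 2, and the labels give a different kit version for each experiment. CTRL 2 and BU 2 shared 677 cell barcodes, 33.5% and 36.4% of their barcodes, and the 2 copies differed at least 51.7-fold in UMIs. The filters kept both copies of 70 of them, of which the shallow copy lay in CTRL 2 for 45 and in BU 2 for 25. The other pairs of libraries shared 11, 1 or 0 barcodes. In Gfra1+ cells the 6 markers of undifferentiated spermatogonia were detected in each library and summed to 1692-2427 CPM (UMIs of a gene per 1000000 UMIs of the cells summed), while 7 spermatid markers, at 503-2440 CPM, 7 Sertoli markers, at 56.7-201 CPM, 6 endothelial markers, at 54.8-58.3 CPM, 7 macrophage markers, at 3.78-86.5 CPM, and 5 Leydig markers, at 1.26-4.90 CPM, were also present. The Gfra1+ class held 585 and 214 cells in CTRL and 865 and 528 in BU, the Sox3+ class 1470 and 646 against 473 and 264, and the Kit+ class 36 and 37 against 322 and 156 (experiment 1 and 2 in each case). The cut asks for more UMIs of the class gene in deeper cells. Of cells with any Gfra1 UMI, 585 of 598 passed in CTRL 1 and 865 of 916 in BU 1. In CTRL 2 and BU 2, 214 of 396 and 528 of 786 passed. For Kit, 36 of 38 passed in CTRL 1, 322 of 348 in BU 1, 37 of 121 in CTRL 2 and 156 of 385 in BU 2. For Sox3, 1470 of 1486 passed in CTRL 1, 473 of 515 in BU 1, 646 of 769 in CTRL 2 and 264 of 566 in BU 2. The classes, and cells positive for 1 class gene only, were therefore not defined alike in the experiments. The share that passed also differed between CTRL 2 and BU 2, which a block for the experiment does not remove.

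The first comparison asked in which of the 3 classes the members were most abundant. It used cells positive for only 1 of the 3 class genes, summed per library, with each library as its own control. Mpzl2, Mcam, Epcam and Itga6 fell from Gfra1+ to Sox3+ cells (4 of 9 members, against 7.62% of all 13273 genes tested called lower), and 0 members were called higher. The median log2 fold change was -0.62 over the members and -0.04 over all genes tested. The members were chosen as known from stem spermatogonia, with earlier results of these data known. Their shares and medians between classes are therefore descriptive and no test of the set. Where cells rich in somatic or spermatid markers (over 0.2% or 2% of their UMIs) were left out, 7 of 9 were called lower (13.9% of all genes tested were), the additional ones being Cd9 (adjusted p = 0.0209), Thy1 (0.0108) and Itgb1 (0.0459). Such cells held 0-6.70% of the UMIs of 8 members in Gfra1-only cells, and 27.2% of those of Cdh1.

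Mpzl2 had the largest difference among the members. Gfra1-only cells held it at 30.6, 44.1, 98.6 and 99.2 CPM in CTRL 1, CTRL 2, BU 1 and BU 2, and Sox3-only cells of the same libraries at 1.34, 2.47, 14.2 and 23.2 CPM. All 4 Gfra1-only values lay above all 4 Sox3-only values. Sox3+ cells differed from Gfra1+ cells by a log2 fold change of -3.26 ± 0.35 (SE; 9.56-fold lower; adjusted p = 0.000289, edgeR).

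Mcam, which encodes an endothelial and stem cell adhesion receptor, came next. It stood at 139, 149, 132 and 156 CPM in Gfra1-only cells of CTRL 1, CTRL 2, BU 1 and BU 2 and at 29.4, 33.8, 43.2 and 66.2 CPM in Sox3-only cells. The 2 sets of values did not overlap, and the log2 fold change was -1.78 ± 0.19 (adjusted p = 0.000256, edgeR).

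Epcam was at 169, 245, 346 and 387 CPM in Gfra1-only cells, and at 62.7, 79.9, 194 and 290.0 CPM in Sox3-only cells, of CTRL 1, CTRL 2, BU 1 and BU 2. Within each library the stem-like cells were higher, by 2.69-fold and 3.07-fold in CTRL and by 1.78-fold and 1.33-fold in BU, although Sox3-only cells of BU 2 exceeded Gfra1-only cells of both CTRL libraries. Over all libraries the log2 fold change was -1.07 ± 0.24 (adjusted p = 0.0124, edgeR). This call was kept in 10 of 14 alternatives. It was lost, among others, without CTRL 1 (log2 fold change -0.94, adjusted p = 0.132) or without BU 1 (-1.15, adjusted p = 0.0716).

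Itga6, the laminin-binding alpha subunit on which the cells were sorted, was at 41.1, 49.3, 80.3 and 61.9 CPM in Gfra1-only cells and at 25.0, 32.7, 48.7 and 47.5 CPM in Sox3-only cells of CTRL 1, CTRL 2, BU 1 and BU 2. The values of the 2 classes overlapped across libraries but the order was the same within each, with a log2 fold change of -0.57 ± 0.13 (adjusted p = 0.0129, edgeR). It was called in 7 of 14 alternatives. Among those without a call were the fits without CTRL 1 (adjusted p = 0.0824), BU 1 (0.153) or BU 2 (0.106).

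The remaining members were not called between Sox3+ and Gfra1+ cells. Cd9 was higher in Gfra1-only cells in 4 of 4 libraries, by 1.22-fold to 1.65-fold (log2 fold change -0.47 ± 0.22, adjusted p = 0.198, edgeR). Thy1 was higher in 4 of 4 too, but at 2.72-7.72 CPM against 0.39-2.53 CPM (log2 fold change -1.69 ± 0.52, adjusted p = 0.0528, edgeR). Itgb1 differed by 1.02-fold to 1.44-fold (log2 fold change -0.24 ± 0.11, adjusted p = 0.198, edgeR). For Cdh1 and Cd24a the log2 fold change lay within 2 SE of 0, and Gfra1-only cells were higher in 3 and 2 of the 4 libraries.

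**Figure D1:**
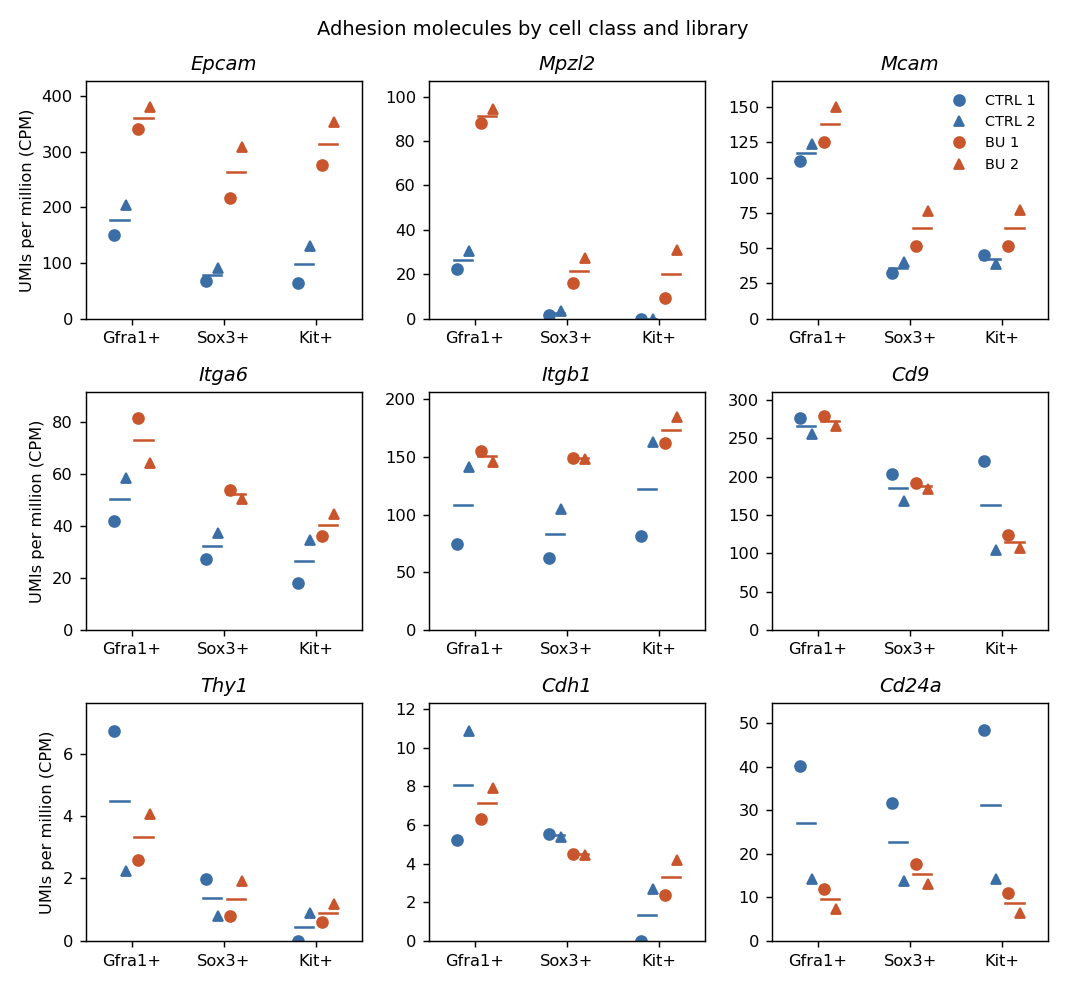
Each panel plots the CPM (linear axis from 0) of 1 member in all Gfra1+, Sox3+ and Kit+ cells of each library. Circles are experiment 1 and triangles experiment 2, blue is CTRL and orange BU, and short lines are the mean of 2 libraries. Epcam and Mpzl2 stand higher in both BU libraries in all 3 classes, Mcam steps down from Gfra1+ to Sox3+ cells in every library, and Cd9 shows no separation of BU from CTRL in Gfra1+ cells (256-279 CPM).

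From Gfra1+ to Kit+ cells 7 of the 9 members fell (11.6% of all genes tested were called lower), with a median log2 fold change of -1.34 over the members and 0.08 over all genes tested. Kit-only cells were few, at 10, 15, 152 and 53 in CTRL 1, CTRL 2, BU 1 and BU 2. The 15 cells of CTRL 2 held 17632 CPM of Leydig markers and 20662 CPM of spermatid markers, while those of CTRL 1 held 0 and 534 CPM. The 7 calls were also made without CTRL 2, and without cells rich in somatic or spermatid markers (20.3% of all genes tested were then called lower).

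Mpzl2 was at 0 in Kit-only cells of both CTRL libraries and at 7.89 and 20.2 CPM in BU 1 and BU 2, with a log2 fold change of -3.38 ± 0.47 (adjusted p = 0.00117, edgeR). Mcam was at 55.7, 17.3, 55.2 and 60.9 CPM in Kit-only cells of CTRL 1, CTRL 2, BU 1 and BU 2, below each Gfra1-only value (log2 fold change -1.69 ± 0.23, adjusted p = 0.00101, edgeR). As counted, neither immunoglobulin-type molecule reached its Gfra1-only level in any library. The 10 Kit-only cells of CTRL 1 held 89841 UMIs in all, however. There the 0 of Mpzl2 cannot be told from the 30.6 CPM of Gfra1-only cells, and Mcam rests on 5 UMIs. Cd9, the tetraspanin, was at 278 CPM in Kit-only cells of CTRL 1 but at 34.5 CPM in CTRL 2, 128 CPM in BU 1 and 106 CPM in BU 2, against 262-288 CPM in Gfra1-only cells. Its log2 fold change was -1.34 ± 0.26 (adjusted p = 0.00511, edgeR) and the call was lost without BU 1 (adjusted p = 0.0671). Within CTRL 1 the 2 classes hardly differed (1.04-fold).

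The integrin alpha subunit Itga6 was at 11.1, 27.1, 36.8 and 37.4 CPM in Kit-only cells of CTRL 1, CTRL 2, BU 1 and BU 2, 1.66-fold to 3.69-fold below Gfra1-only cells of the same library (log2 fold change -0.96 ± 0.16, adjusted p = 0.00251, edgeR; 0.0681 without BU 1). Its partner Itgb1 went the other way in each library, at 77.9, 163, 181 and 178 CPM in Kit-only cells against 74.4, 144, 157 and 141 CPM in Gfra1-only cells, but the log2 fold change lay within 2 SE of 0. Against Sox3+ cells, Itgb1 was called higher in Kit+ cells (log2 fold change 0.47 ± 0.13, adjusted p = 0.0342, edgeR; 7.58% of all genes tested were called higher) and Cd9 lower (-0.87 ± 0.26, adjusted p = 0.0456, edgeR; 6.81% called lower). Both calls rested on single libraries and on other choices, with Itgb1 called in 5 and Cd9 in 8 of 14 alternatives. Itgb1 was not called without CTRL 1 (adjusted p = 0.102), BU 1 (0.0904) or BU 2 (0.405), and Cd9 was not called without BU 1 (0.156) or BU 2 (0.145). Both were called without cells rich in somatic or spermatid markers, and Itga6 was then called lower in Kit+ cells as well (-0.51, adjusted p = 0.0207), where 25.2% of all genes tested were called in either direction.

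Thy1 and Cdh1, although among the 7 that fell, were scarce. Thy1, a glycoprotein used to enrich stem spermatogonia, was at 0, 2.47, 0.66 and 0 CPM in Kit-only cells of CTRL 1, CTRL 2, BU 1 and BU 2 (log2 fold change -2.99 ± 0.98, adjusted p = 0.0478, edgeR), and the call was lost without any 1 of CTRL 1 (adjusted p = 0.110), BU 1 (0.141) or BU 2 (0.266). Cdh1, whose protein every sorted cell was gated on, reached only 5.25-13.6 CPM in Gfra1-only cells and 0-2.94 CPM in Kit-only cells (log2 fold change -1.97 ± 0.52, adjusted p = 0.0206, edgeR), and was not called without BU 1 (0.134) or BU 2 (0.0646). Epcam was the member with the smallest called difference (log2 fold change -0.82 ± 0.27, adjusted p = 0.0477, edgeR; 0.124 without CTRL 1 and 0.0997 without BU 1). The calls of Thy1, Cdh1 and Epcam were kept in 8 of 13, 10 of 14 and 9 of 14 alternatives. Those of Cd9 and Itga6 were kept in 11 and 10 of 14.

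**Figure D2:**
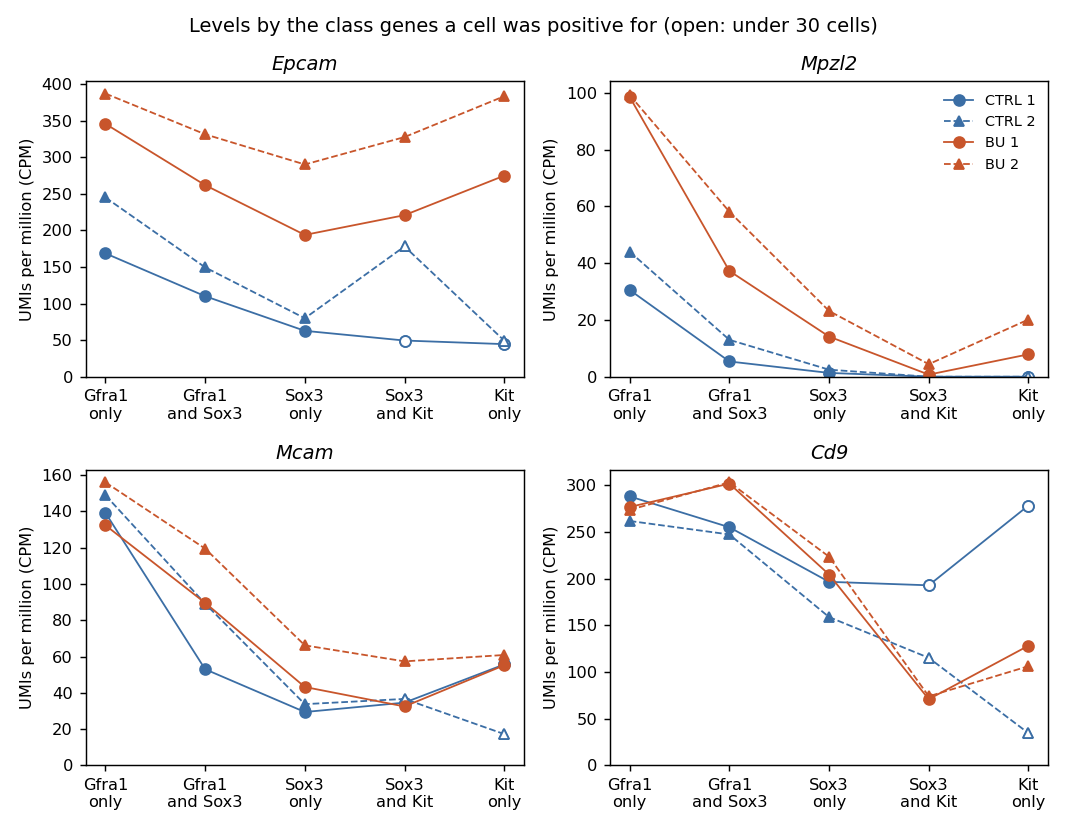
CPM (linear axis from 0) of Epcam, Mpzl2, Mcam and Cd9 in cells grouped by the class genes for which they were positive, 1 line per library (circles and solid lines are experiment 1, triangles and dashed lines experiment 2, blue CTRL, orange BU). Open symbols stand for under 30 cells. Cells positive for Gfra1 and Sox3 lie between Gfra1-only and Sox3-only cells for Mpzl2 and Mcam in all 4 libraries, and the CTRL lines of Mpzl2 end at 0.

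Cells positive for both Gfra1 and Sox3 (147, 74, 94 and 50 cells in CTRL 1, CTRL 2, BU 1 and BU 2) had intermediate levels of some members only. Mpzl2 was at 5.37, 13.0, 37.3 and 58.1 CPM in them, and Mcam at 53.0, 89.2, 89.6 and 120 CPM, in each library between the values of Gfra1-only and Sox3-only cells. Epcam, at 110.1, 149, 262 and 331 CPM, was intermediate in each as well. Cd9, at 255, 247, 302 and 303 CPM, was not: in the BU libraries it exceeded the Gfra1-only value. Itga6, at 45.0, 71.5, 97.6 and 78.0 CPM, exceeded the Gfra1-only value in each library. Itgb1, at 75.8, 135, 144 and 143 CPM, was intermediate in CTRL 2 only. These combinations were described and not tested.

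The second comparison asked whether the members differed after busulfan, class by class. Cells of a class were summed per library, cells positive for more than 1 class gene counted in each class, and the 3 comparisons share the same 4 libraries. Without a term for the experiment, edgeR called 0% of genes in each class: 0 of 13632 in Gfra1+ cells (583 at an unadjusted p under 0.05, and 15 called by DESeq2), 0 of 14445 in Sox3+ cells (2028 and 328) and 0 of 11030 in Kit+ cells (909 and 46). The same replicate number marks the same experiment and sequencing lane, and with the experiment as a block 9, 822 and 105 genes were called. Each member is therefore given with both fits.

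Epcam was higher in both BU than in both CTRL libraries in each class. In Gfra1+ cells it was at 150.4 and 204 CPM in CTRL 1 and CTRL 2 (177 ± 38.0, SD, n = 2) and at 340.2 and 380 CPM in BU 1 and BU 2 (360 ± 27.9, SD, n = 2). The means were 2.03-fold apart, and the fitted log2 fold change was 1.12 ± 0.27 without the block (adjusted p = 1.00) and 1.13 ± 0.20 with it (adjusted p = 0.0631), so it was not called in either. In Gfra1-only cells Epcam was at 169 and 245 CPM in CTRL and at 346 and 387 CPM in BU. The ratio of BU to CTRL was smaller there than in all Gfra1+ cells. In Sox3+ cells Epcam was at 67.8 and 90.2 CPM in CTRL and at 217 and 309 CPM in BU, with means 3.33-fold apart (fitted log2 fold change 1.69 ± 0.31, adjusted p = 0.191), and rose in the blocked fit (1.69 ± 0.15, adjusted p = 0.0176; 2.58% of all genes tested were called higher).

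Kit+ cells showed the same order, with Epcam at 63.5 and 131 CPM in CTRL and at 276 and 353 CPM in BU. Its log2 fold change was 1.61 ± 0.42 (adjusted p = 0.460) and, with the block, 1.67 ± 0.30 (adjusted p = 0.0253; 0.109% of genes tested were called higher). The ratio of BU to CTRL was above 1 within both experiments in each class. In Gfra1+ cells it was 2.26 in experiment 1 and 1.86 in experiment 2, and in Sox3+ cells 3.20 and 3.43. Of the 37 Kit+ cells of CTRL 2, 19 had a barcode that another library also held, and without all shared barcodes the blocked log2 fold change in Kit+ cells was 1.61 (adjusted p = 0.000929). Of these 37 cells 3 were rich in spermatid and 2 in somatic markers. Kit+ cells also positive for Sox3 but not Gfra1 numbered 21, 16, 128 and 79 in CTRL 1, CTRL 2, BU 1 and BU 2, and Kit-only cells 10, 15, 152 and 53. The part of this make-up in the result was not tested.

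Mpzl2, the epithelial V-like antigen, had the larger differences. In Gfra1+ cells it was at 22.4 and 30.3 CPM in CTRL (26.4 ± 5.56, SD, n = 2) and at 88.2 and 94.3 CPM in BU (91.2 ± 4.38, SD, n = 2). The means were 3.46-fold apart, and the fitted log2 fold change was 1.89 ± 0.29 (adjusted p = 1.00), and with the block 1.90 ± 0.23 (adjusted p = 0.0278; 0.0367% of genes tested were called higher). The blocked call was lost where the shallow copies of shared barcodes (adjusted p = 0.0590), all shared barcodes (0.136) or cells rich in somatic or spermatid markers (0.106) were left out, with log2 fold changes of 1.74-2.13 over all alternatives. In Gfra1-only cells Mpzl2 was at 30.6 and 44.1 CPM in CTRL and at 98.6 and 99.2 CPM in BU. The ratio of BU to CTRL was smaller there than in all Gfra1+ cells.

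In Sox3+ cells Mpzl2 was at 1.75 and 3.56 CPM in CTRL and at 16.1 and 27.1 CPM in BU, the CTRL values resting on 24 and 90 UMIs. Unblocked, the log2 fold change was 2.96 ± 0.50 (adjusted p = 0.190) and with the block Mpzl2 was called higher (2.99 ± 0.25, adjusted p = 0.0176). Without all shared barcodes both Mpzl2 and Epcam were still called in Sox3+ cells with the block (adjusted p = 0.0361 each). In Kit+ cells the CTRL libraries held 0 UMIs of Mpzl2 and BU 1 and BU 2 held 9.28 and 31.0 CPM. As a limit for the count of 0, 3 UMIs over both CTRL libraries (2.06 CPM) were set. The pooled BU cells were 12.1-fold above this limit, and the lower library alone, BU 1, 4.50-fold. The limit leaves out the spread between libraries. Many of the BU UMIs lay in Kit+ cells also positive for Gfra1. Cells positive for Gfra1 and Kit held 15 in BU 1 and 134 in BU 2, and cells positive for all 3 class genes 3 and 66. Kit-only cells held 12 and 48 (7.89 and 20.2 CPM), and cells positive for Sox3 and Kit 1 and 17. In CTRL 1 and CTRL 2 the 0 of Kit-only cells rests on 89841 and 405295 UMIs of all genes. With the block Mpzl2 was called in Kit+ cells (adjusted p = 0.0282, edgeR). It passed the filter on low counts through the BU libraries alone, so this call is not used as support.

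Other measures moved with the groups. The 12 mitotic markers summed to 1329 and 1853 CPM in Gfra1+ cells of CTRL 1 and CTRL 2 and to 2276 and 2657 CPM in BU 1 and BU 2. In the mitotic-low Gfra1+ cells alone, Epcam was at 106 and 140.0 CPM in CTRL and 272 and 313 CPM in BU (blocked log2 fold change 1.30, adjusted p = 0.00258), and Mpzl2 was called too (1.99, adjusted p = 0.00109). The cells were divided at each library's own median, so the mitotic markers still differed in them, at 415 and 534 CPM in CTRL and 800.2 and 809 CPM in BU. Spermatid markers in Gfra1+ cells went the other way within each experiment, at 1164 and 2440 CPM in CTRL and 503 and 1081 CPM in BU, as did Sertoli markers, at 90.8 and 201 CPM and at 56.7 and 144 CPM. The part of these markers in the results was not tested beyond the values without rich cells. In Sox3+ cells, the mitotic markers were at 1042 and 1367 CPM in CTRL and at 2265 and 2677 CPM in BU, and in Kit+ cells at 841 and 1662 CPM and at 2633 and 3096 CPM. Sox3+ cells of BU also held more Kit (4.33 ± 3.22 CPM in CTRL and 57.1 ± 12.1 CPM in BU, SD, n = 2) and more Gfra1 (17.1 ± 3.64 CPM in CTRL and 40.1 ± 3.49 CPM in BU, SD, n = 2). In cells positive for Sox3 only, Epcam was at 62.7 and 79.9 CPM in CTRL and 194 and 290.0 CPM in BU, 3.39-fold apart in their means, and Mpzl2 at 1.34 and 2.47 CPM against 14.2 and 23.2 CPM. Within each experiment these Sox3-only cells still held more Gfra1 in BU (0.33 and 7.65 CPM in CTRL, 1.57 and 19.1 CPM in BU). The same held for Kit (0.17 and 2.47 CPM in CTRL, 0.39 and 12.3 CPM in BU).

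**Figure D3:**
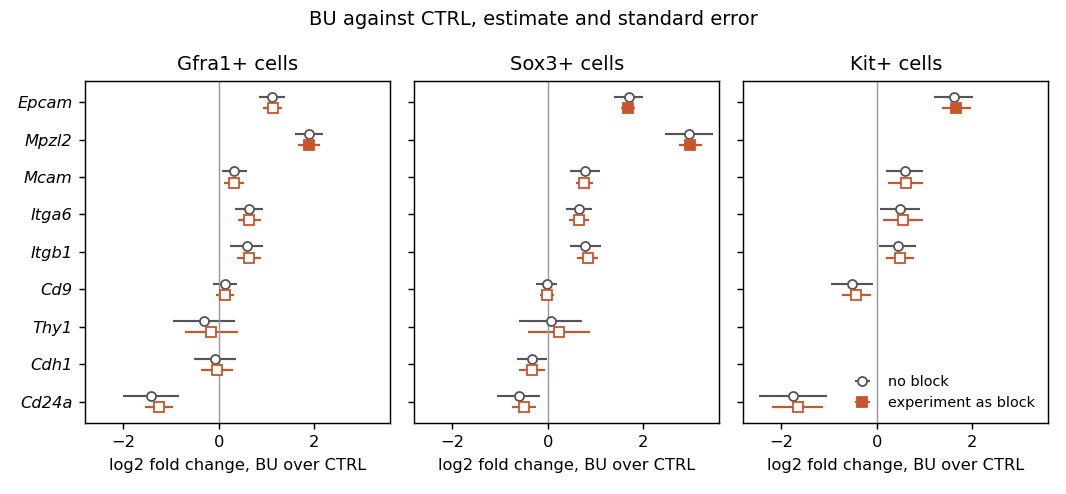
The log2 fold change of BU over CTRL (x axis) of each member, with its standard error as the bar, in Gfra1+, Sox3+ and Kit+ cells, without (grey circles) and with the experiment as a block (orange squares). Filled symbols are called at an adjusted p under 0.05 and all grey ones are open. Mpzl2 in Kit+ cells is left out because CTRL was at 0, and Thy1 and Cdh1 in Kit+ cells were too low to test.

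Itga6, Itgb1 and Mcam were also higher in both BU than in both CTRL libraries in Gfra1+ and in Sox3+ cells, by less than Epcam and Mpzl2. In Gfra1+ cells Itga6 was at 41.9 and 58.2 CPM in CTRL and at 81.4 and 64.3 CPM in BU (log2 fold change 0.64 ± 0.30, adjusted p = 1.00; 0.355 with the block). Itgb1 was at 74.9 and 141 CPM against 155 and 146 CPM, so that the BU ratio was 2.07 in experiment 1 and 1.03 in experiment 2. Mcam was at 112 and 123 CPM against 125 and 150.0 CPM. For Itgb1 and Mcam in Gfra1+ cells the log2 fold change lay within 2 SE of 0. Gfra1+ cells of CTRL held more Sox3 (54.3 and 74.3 CPM against 17.7 and 26.3 CPM in BU), and in Gfra1-only cells, given above, Itgb1 and Mcam overlapped between the groups, with mean ratios of BU to CTRL of 1.36 and 1.00.

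In Sox3+ cells the same 3 members again did not overlap between the groups. Mcam was at 32.0 and 40.3 CPM in CTRL and at 51.5 and 76.5 CPM in BU (log2 fold change 0.78 ± 0.31, adjusted p = 0.349; 0.0651 with the block). Itgb1 was at 62.0 and 105 CPM against 149 and 148 CPM (0.79 ± 0.32, adjusted p = 0.369; 0.0782 with the block). Itga6 was at 27.1 and 37.1 CPM against 53.9 and 50.2 CPM (0.65 ± 0.27, adjusted p = 0.376; 0.112 with the block). None of the 3 was called in either fit.

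Cd24a was lower in BU in Gfra1+ and Kit+ cells, uncalled, and Cd9 did not separate the groups. Cd24a, a glycosylated surface protein, was at 40.1 and 14.3 CPM in CTRL and at 12.03 and 7.40 CPM in BU in Gfra1+ cells (log2 fold change -1.41 ± 0.59, adjusted p = 1.00; 0.136 with the block), and without CTRL 1 the log2 fold change was -0.42. In Kit+ cells it was at 48.4 and 14.2 CPM against 11.1 and 6.44 CPM (-1.76 ± 0.71, adjusted p = 0.596; 0.192 with the block). In both classes CTRL 1 stood well above the other 3 libraries. In Sox3+ cells the groups overlapped, at 31.7 and 13.8 CPM in CTRL and 17.6 and 13.0 CPM in BU. Cd9 was at 277 and 256 CPM in CTRL and 279 and 266 CPM in BU in Gfra1+ cells, and Cdh1 (5.24 and 10.8 against 6.33 and 7.89 CPM) and Thy1 (6.71 and 2.23 against 2.58 and 4.05 CPM) overlapped between the groups.

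Among members with a mean of at least 20 CPM, both BU libraries lay above both CTRL libraries for 5 of 6 in Gfra1+ cells, where this held for 11.7% of 6708 genes of that level (in Gfra1-only cells Itgb1 and Mcam of the 5 overlapped), for 4 of 5 in Sox3+ cells (26.8% of 6599 genes) and for 3 of 6 in Kit+ cells (23% of 6917 genes). The median log2 fold change without the block was 0.32, 0.65 and 0.49 over the members tested in the 3 classes and 0.00, 0.02 and -0.01 over all genes tested. Since the members were chosen with earlier results of these data known, these shares and medians are descriptive and no test of the set.

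The share of cells with at least 1 UMI of Epcam or Mpzl2 was read after each cell was thinned to 5000 UMIs, which kept 520 of 585 and 209 of 214 Gfra1+ cells of CTRL 1 and CTRL 2 and 847 of 865 and 524 of 528 of BU 1 and BU 2. Epcam was then detected in 43.8% (228 of 520; exact 95% interval 39.5-48.2) and 56.5% (118 of 209; 49.5-63.3) of Gfra1+ cells in CTRL 1 and CTRL 2, and in 75.4% (639 of 847; 72.4-78.3) and 79.0% (414 of 524; 75.3-82.4) in BU 1 and BU 2. Mpzl2 was detected in 10.2% of cells of CTRL 1 (53 of 520; 7.73-13.1) and in 23 of 209 cells of CTRL 2 (7.11-16.05%), against 31.2% (264 of 847; 28.1-34.4) and 34.7% (182 of 524; 30.7-39.0). The intervals cover counting error only. Unthinned, the shares were 56.1%, 87.9%, 88.1% and 97.3% for Epcam and 15.4%, 38.3%, 50.2% and 77.8% for Mpzl2, in the order CTRL 1, CTRL 2, BU 1, BU 2.

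The mean shares differed by 27.1 percentage points for Epcam and 22.4 for Mpzl2, with no overlap of the groups, and the exact permutation test over the 6 assignments of the 4 libraries gave the smallest p it allows (0.33, two-sided). Spermatid-rich cells, set beside them for comparison, had Epcam in 9 of 41, 15 of 89, 5 of 9 and 10 of 59 thinned cells of CTRL 1, CTRL 2, BU 1 and BU 2, and Mpzl2 in 0, 0, 1 and 2 of them. They also held markers of undifferentiated spermatogonia, at 374 CPM in CTRL 1 and 1107 CPM in BU 1, so they are no clean background. Median depths before thinning were 7258, 26791, 10240 and 38419 UMIs in Gfra1+ cells and 11844, 23957, 14901 and 23489 UMIs in spermatid-rich cells of these libraries. All Gfra1+ shares lay above the spermatid-rich share of the same library. The step between CTRL and BU for Mpzl2 in Sox3+ cells ran from 0.98% and 1.10% to 6.00% and 8.88%. Of these, the CTRL shares are near the 0 of the spermatid-rich cells of CTRL 1 and CTRL 2, and the BU 1 share lay below the 1 of 9 spermatid-rich cells of that library.

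The step between classes was compared between CTRL and BU as well. Epcam in Gfra1-only cells exceeded that in Kit-only cells by 3.79-fold and 4.96-fold in CTRL 1 and CTRL 2 but by 1.26-fold and 1.01-fold in BU 1 and BU 2. This difference in the step was 1.82 ± 0.30 on the log2 scale (adjusted p = 0.0118, edgeR), and Epcam was the 1 member called, where 3.59% of all genes tested were called in either direction. The call rests on 10 and 15 CTRL cells, and it was lost without CTRL 2 (1.86, adjusted p = 0.333), BU 1 (2.24, 0.0890) or BU 2 (1.80, 0.187), and where cells rich in somatic or spermatid markers were left out (1.41, adjusted p = 0.0577). With all positive cells, which put 36 and 37 CTRL cells in the Kit+ class, it was 0.57 (adjusted p = 0.106).

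For the step from Gfra1+ to Sox3+ cells no member was called (0.0226% of all genes tested were). The differences in the step were 0.80 ± 0.16 for Epcam (adjusted p = 0.182, edgeR), 1.76 ± 0.36 for Mpzl2 (0.189), 0.69 ± 0.19 for Mcam (0.383) and 1.38 ± 0.40 for Cd24a (0.428). Without cells rich in somatic or spermatid markers Mpzl2 (1.79, adjusted p = 0.00495), Epcam (0.79, 0.0119) and Mcam (0.69, 0.0423) were called, 3 of 9 members against 0.731% of all genes tested. In these 3 and in Cd24a the Gfra1-only to Sox3-only ratio was higher in both CTRL than in both BU libraries. For Mpzl2 it was 22.8 and 17.8 in CTRL 1 and CTRL 2 against 6.97 and 4.28 in BU 1 and BU 2, and for Mcam 4.73 and 4.41 against 3.06 and 2.36.

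The last comparison divided the Gfra1+ cells of each library at the median share of UMIs from 12 mitotic genes (Top2a, Mki67 and others), which were left out of the test. Epcam, Itga6, Mpzl2 and Itgb1 rose with the mitotic share (4 of 9 members, where 14.4% of all 12890 genes tested were called higher) and Cd9 fell (1 of 9, where 14% were called lower). Mitotic-high cells were also deeper, with medians of 8428, 30273, 11643 and 50807 UMIs against 6600, 25190, 9192 and 30253 UMIs in CTRL 1, CTRL 2, BU 1 and BU 2, and held less of other cell types' markers. Sertoli markers were at 48.8, 37.8, 31.8 and 42.2 CPM in mitotic-high against 143, 396, 87.9 and 318 CPM in mitotic-low cells of these libraries, spermatid markers at 683, 445, 359 and 567 CPM against 1761, 4839, 683 and 1952 CPM, and macrophage markers at 0.38-4.05 CPM against 7.99-189.8 CPM. The part of depth and of these cells in the differences was not tested.

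Epcam had the largest of these differences. It was at 186, 257, 394 and 419 CPM in mitotic-high and at 106, 140.0, 272 and 313 CPM in mitotic-low Gfra1+ cells of CTRL 1, CTRL 2, BU 1 and BU 2, that is 1.75, 1.84, 1.45 and 1.34 times higher. This amounted to a log2 fold change of 0.68 ± 0.07 (adjusted p = 6.19e-05, edgeR), which was called without each library in turn. Mitotic-low cells of both BU libraries nevertheless held more Epcam than mitotic-high cells of both CTRL libraries.

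Itga6 was 1.13-fold to 1.64-fold higher in mitotic-high cells (log2 fold change 0.46 ± 0.10, adjusted p = 0.00459, edgeR; 0.0614 without BU 2) and Mpzl2 1.05-fold to 1.66-fold (0.41 ± 0.10, adjusted p = 0.0128, edgeR; 0.112 without BU 2). Both were called in 6 of 8 alternatives. Itgb1 was higher in 4 of 4 libraries by 1.04-fold to 1.15-fold (0.20 ± 0.06, adjusted p = 0.0408, edgeR). It was called in 2 of 8 alternatives, and not without CTRL 1 (0.0798), CTRL 2 (0.0599) or BU 2 (0.255). Cd9 was lower in 4 of 4 (log2 fold change -0.22 ± 0.06, adjusted p = 0.0241, edgeR), with 251 against 314 CPM in BU 1 and 220 against 299 CPM in CTRL 2. It was called in 4 of 8 alternatives, and not without CTRL 2 (0.113), BU 1 (0.120) or BU 2 (0.0753). In somatic-rich cells Cd9 was at 233, 345, 846 and 558 CPM in CTRL 1, CTRL 2, BU 1 and BU 2. The 4 other members were not called, and for each the log2 fold change lay within 2 SE of 0.

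**Figure D4:**
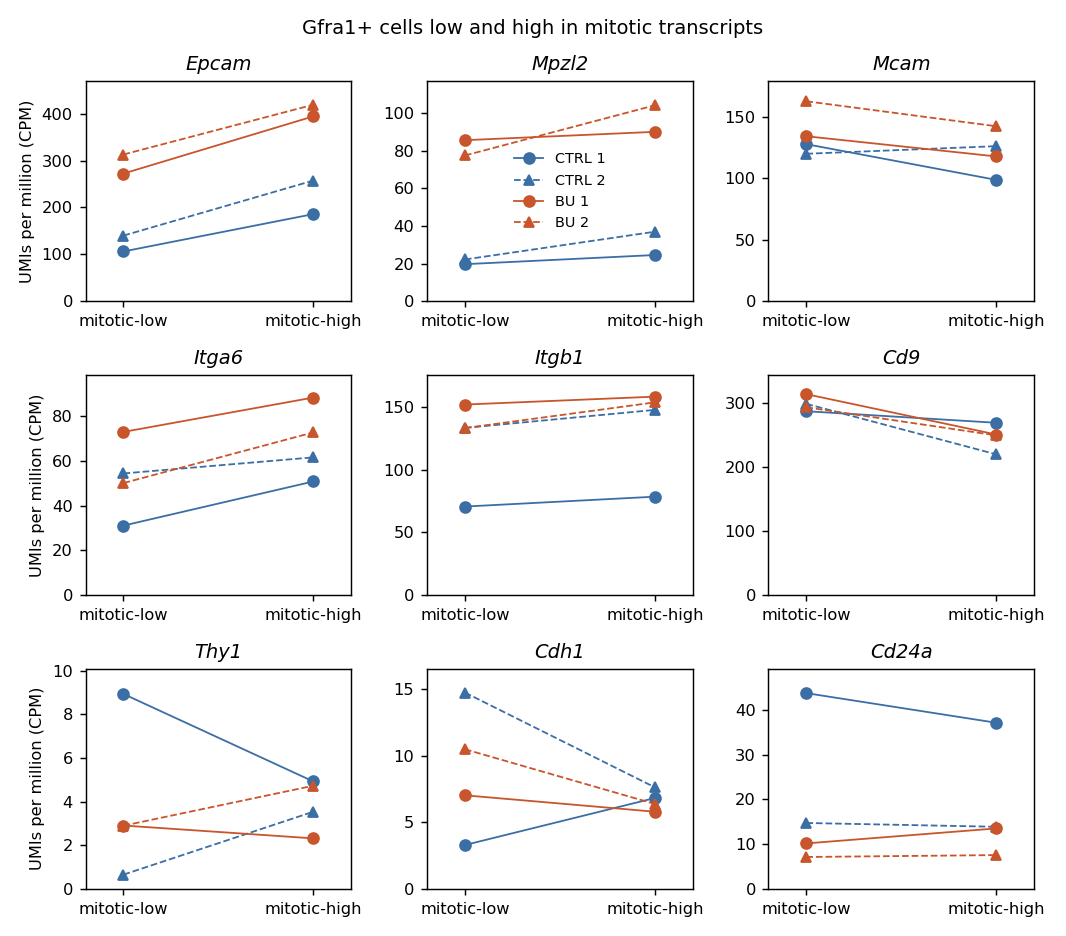
CPM (linear axis from 0) of each member in Gfra1+ cells at or below and above the library median share of mitotic transcripts, 1 line per library (circles and solid lines are experiment 1, triangles and dashed lines experiment 2, blue CTRL, orange BU). All 4 lines rise for Epcam, Mpzl2, Itga6 and Itgb1 and all 4 fall for Cd9.

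Over the 12 sums of the 3 classes and 4 libraries, which share libraries and depth, the log2(CPM + 1) levels of Epcam and Mpzl2 had a Pearson correlation of 0.91, those of Mpzl2 and Itga6 one of 0.89, and those of Itgb1 and Cd24a one of -0.77. Among 6861 genes with a mean of at least 20 CPM, the genes most like Epcam were Hmgb3 (0.97), Hsp90aa1 (0.96) and Mcm10 (0.95), and those most like Mpzl2 were Lhx1 (0.97), Mcm10 (0.96) and Dync1li1 (0.95). Mcam was most like Rasl11a, Arpc3 and Arhgap26 (0.96-0.97), Itgb1 most like Fndc3a, Diaph3 and Sp3 (0.97-0.99), Cd9 most like Leprotl1, Tm2d1 and Sult5a1 (0.98), and Itga6 most like Thoc2, Magea5 and Pmaip1 (0.95-0.97). For the low members the nearest genes were Araf, Med14 and Ptbp3 (Cdh1), Tada3, Ddt and Tmem50a (Thy1) and Pef1, Pex19 and Tyw1 (Cd24a). These correlations describe the 12 sums and were not tested.

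Other adhesion genes were read from 8 lists of 167 genes, of which 113 were tested between classes. The lists too were chosen with earlier results of these data known. From Gfra1+ to Sox3+ cells 27 fell and 5 rose (23.9% and 4.42%, where 7.62% and 5.88% of all genes were called). Without cells rich in somatic or spermatid markers 35 fell and 9 rose of 107 tested (32.7% and 8.41%, where 13.9% and 13% of all genes were called). Among 11 tested genes of the integrin list, which holds subunits and the beta1-binding Itgb1bp1, 5 fell and 0 rose, and the median of the list was -1.08. They included Itgav (log2 fold change -1.95 ± 0.44), Itga1 (-1.78 ± 0.30) and Itga7 (-1.63 ± 0.39), which form matrix receptors with beta subunits. Among cadherins and catenins 4 of 12 fell and 0 rose (Cdh3 -2.47 ± 0.31, Cdh13 -2.01 ± 0.50, Cdh4 -1.71 ± 0.43). The basement membrane linkers Nid1 (-2.54 ± 0.18) and Nid2 (-1.51 ± 0.21) fell while Hspg2, encoding perlecan, rose (2.94 ± 0.30), of 14 basement membrane genes tested. Of 13 other stem surface molecules 5 fell, led by Epha2 (-2.84 ± 0.23), Plaur (-2.74 ± 0.34) and Ret (-1.53 ± 0.20), and 0 rose. Of 17 tetraspanins 2 fell (Cd82 and Tspan31) and Tspan33 rose, and of 10 EPCAM partners and proteases 2 fell (St14 and Adam17) and Lef1 rose.

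In the 2 remaining lists some of the genes called were found mainly in cells rich in somatic or spermatid markers. Among immunoglobulin adhesion molecules 4 of 20 fell, including Bcam (-3.59 ± 0.92), Ncam1 (-1.85 ± 0.37) and Icam1 (-1.20 ± 0.21), and Igsf8 rose (1.32 ± 0.18). Of the 891 Bcam UMIs of Gfra1-only cells, 97.5% lay in cells rich in such markers, against 41.3% for Ncam1. Without these cells Bcam was too low to test, Ncam1 fell by 1.31 on the log2 scale, and 5 of 18 molecules fell and 2 rose. Among 16 integrin linkers Fermt1, Parva and Zyx fell and Src rose. Fermt1 had 98.1% of its 106 UMIs in the rich cells and was too low to test without them, while the other 3 were called.

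From Gfra1+ to Kit+ cells 23 of the 113 fell and 9 rose (20.4% and 7.96%, where 11.6% and 11.8% of all genes were called). Without the rich cells 39 of 107 fell and 15 rose (36.4% and 14%, where 20.3% and 16.6% of all genes were called). Itga1 (-2.41 ± 0.41) and Itgb5 fell and Itgad and Itgb1bp1 rose among the 11 genes of the integrin list, Itgb1bp1 encoding a protein that binds the beta1 tail and is not a subunit. Cdh4, Cdh3 and Ctnnd1 fell, as did 5 of 20 immunoglobulin molecules (Bcam, Ncam1 and F11r by the most) while Nectin3 rose, 4 of 16 linkers (led by Fermt1, Zyx and Pxn) and 6 of 13 stem surface molecules, while Fgfr3 and Adgra3 rose. Bcam and Fermt1 were, as above, seen in Gfra1-only cells almost wholly where somatic or spermatid markers were high. Nid1 and Nid2 fell again and Hspg2 and Fn1 rose, Tspan15 rose among 17 tetraspanins, and St14 fell among 10 EPCAM partners and proteases. From Sox3+ to Kit+ cells 10 of the listed genes rose and 5 fell, that is 8.85% and 4.42% of those tested, near the shares of all genes. Without the rich cells 12 rose and 17 fell (11.2% and 15.9%, near the 10.8% and 14.3% of all genes).

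Between BU and CTRL, with the block, 1 of the listed genes was called in Gfra1+ cells (Plaur, encoding the urokinase receptor, 3.56 ± 0.37). This was 0.847% of those tested, where 0.066% of all genes were called. In Sox3+ cells 8 were called (6.61% of those tested, near the 5.69% of all genes) and in Kit+ cells 0 (0.952% of all genes). In Sox3+ cells Cd63 (2.80 ± 0.17), Plaur (2.78 ± 0.43), Bcam (2.66 ± 0.45) and Itgav (2.10 ± 0.39) rose, and Hspg2 (-1.98 ± 0.22), Igsf8 (-1.40 ± 0.18), Lef1 (-1.12 ± 0.22) and Sdc4 (-0.90 ± 0.13) fell. Without the rich cells Plaur was not called in Gfra1+ cells (adjusted p = 0.0862, edgeR) nor Bcam in Sox3+ cells (0.0715). Again 8 were called in Sox3+ cells, Tspan18 in place of Bcam (6.61% of those tested, where 5.05% of all genes were called). In Kit+ cells 1 rose (Cd63) and 3 fell (Lamb1, Igsf8 and Sdc4) without the rich cells. These were 1.15% and 3.45% of those tested, where 0.378% and 1.53% of all genes were called. Without the block 0 of the listed genes were called in any class.

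Between mitotic-high and mitotic-low Gfra1+ cells, 9 of 114 listed genes rose and 24 fell, which is 7.89% and 21.1% where 14.4% and 14% of all genes were called. Of 17 tetraspanins 4 fell, among them Cd82 (-0.78 ± 0.15), Tspan6 (-0.61 ± 0.17) and Tspan31 (-0.47 ± 0.09), in the same direction as the tetraspanin Cd9, while Tspan13 rose (0.60 ± 0.12). Of 11 genes of the integrin list Itga2b alone was called, and fell, unlike the members Itga6 and Itgb1. Of 20 immunoglobulin molecules 6 fell and 0 rose, Bcam, Jam2 and Nectin2 by the most. In Gfra1-only cells 97.5%, 85.3% and 45.6% of their UMIs lay in cells rich in somatic or spermatid markers. Over all listed genes that fell, this share ran from 0.87% (Ret) to 98.1% (Fermt1). It was 91.7% for Col4a5, 86.8% for Fgfr2, 73.9% for Parvb, 70.4% for Ctnnal1, 69.4% for Col4a4, 68% for Cldn3 and 37.8% for Itga2b. For Cdh3, Psen2, Tspan31 and Cd47 it was 1.84%, 2.84%, 6.12% and 7.85%. The part of these cells in the differences between mitotic-high and mitotic-low cells was not tested. In the remaining lists 1 of 15 basement membrane genes rose and 3 fell, 2 of 17 linkers rose and 2 fell, 2 of 12 cadherins and catenins rose and 2 fell, 1 of 10 EPCAM partners and proteases rose and 3 fell, and 2 of 12 stem surface molecules rose and 3 fell.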

How the data were processed

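Cells of 3 mice per library were sorted, captured on the 10x Genomics platform and sequenced, both libraries of an experiment in 1 lane. Per the file headers the deposited matrices are raw UMI counts per gene and cell from Cell Ranger 3.0.2, and the submitters' processing notes also name Seurat 3.2. The labels give kit V2 for experiment 1 and V3.1 for experiment 2, while the study's methods name V2 alone. The labels also name another genome build than the study's methods, so the positions given are those of the gene IDs in GENCODE M21. Libraries held 21136369-53579969 UMIs, and no cell column was unmapped.

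UMIs were summed per library and class, since cells are not replicates, and tested with edgeR 4.0.16 (quasi-likelihood, filterByExpr, TMM) with Benjamini-Hochberg adjustment over all genes tested, called at an adjusted p under 0.05. Class genes, and mitotic genes where they divide the cells, were left out of the tests. Errors of log2 fold changes are SE, the size of the change over the root of F. With 2 libraries per group, p-values of the BU against CTRL fits without the block measure the spread between the libraries of a group. That spread holds the pools of mice, the experiments and the kit versions together. The labels name the experiment and the kit version, which changed together, so their parts cannot be told apart. The block removes the spread between experiments, and the few sums leave little to measure what remains. Where each library is its own control, between classes and mitotic levels, p-values measure how evenly a difference within libraries repeated. DESeq2 1.42.0 was an alternative. On simulated counts for Gfra1+ cells with an experiment effect put in, 0% of 200 genes changed by 2 on the log2 scale were recovered without the block and 99.5% with it. Where no such effect was put in, 99.5% were recovered without the block and 100% with it. The simulated effect is of the kind the block removes, so these runs cannot show which fit suits the data. No doublet caller was run; an alternative left out the 5% of cells with most UMIs. Cells with over 0.2% somatic or 2% spermatid marker UMIs are called rich in them.

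Libraries with the same number deviated together (correlation 0.66, 0.61 and 0.49 in Gfra1+, Sox3+ and Kit+ cells), and the labels tie the number to the experiment. The members and gene lists were chosen with earlier results of these data known. Named besides the members are at most 3 called genes per list, direction and comparison, and the 3 genes most alike to each member.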

Additional observations from a re-analysis of the deposited data

Results flagged for a closer look

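The step in Epcam between Gfra1-only and Kit-only cells differed between CTRL and BU libraries by 1.82 on the log2 scale, by a test of the difference itself (interaction term, adjusted p = 0.0118, edgeR). Epcam in Kit-only cells was at 44.5 and 49.3 CPM in CTRL 1 and CTRL 2 and at 275 and 383 CPM in BU 1 and BU 2, while in Gfra1-only cells it was at 169 and 245 CPM and at 346 and 387 CPM. The Kit-only cells of CTRL 2 held 17632 CPM of Leydig markers and 20662 CPM of spermatid markers, and without cells rich in such markers the difference was 1.41 (adjusted p = 0.0577).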

How the results depend on the processing

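Each result was recomputed under alternatives that changed 1 choice, or 1 choice with the block. Members whose log2 fold change was at least 2 SE from 0 were followed through all of them, a rule chosen after the values were seen. Of 578 alternatives of these 41 values, 413 kept the direction and side of the threshold, 72 lost a call, 92 gained one and 1 reversed (Itgb1, Kit+ against Sox3+ cells, with any UMI of 1 class gene: -0.32). Of the 38 other tested values, 0 of them called, 28 changed sign under some alternative. With 2 libraries per group, scarce members (Thy1, Cdh1) and the 10 and 15 Kit-only cells of CTRL limit what could be detected. The cause of the changes below was not tested.

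Genes called between BU and CTRL numbered 0 in each class without the block. In the order Gfra1+, Sox3+ and Kit+ cells they numbered 9, 822 and 105 with the replicate block, 15, 328 and 46 with DESeq2, and 50, 362 and 564 with no filter on low counts. Without 1 library they numbered 0-25, 10-1331 and 89-886. With the block they were 194, 2043 and 356 without the 5% of cells with most UMIs, and 0, 726 and 207 without cells rich in somatic or spermatid UMIs. In Gfra1+ cells 172 were called in mitotic-low and 92 in mitotic-high cells. Alternatives added after seeing the data, all with the block, gave 58, 760 and 46 with DESeq2, 0, 978 and 156 with library totals only, 474, 2059 and 455 with any UMI of the class gene, 3, 724 and 79 without shallow copies of shared barcodes, and 1, 37 and 489 without all shared barcodes. The block changed the calls of Epcam (Sox3+ and Kit+) and Mpzl2 (each class) and no other member's. In Kit+ cells Mpzl2 was at 0 in CTRL and passed the filter through the BU libraries alone.

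Between classes, genes called for Sox3+ against Gfra1+, Kit+ against Gfra1+ and Kit+ against Sox3+ cells numbered 1791, 3114 and 1910. They were 391, 1004 and 107 with no replicate block, 3063, 4911 and 1171 with all positive cells, 275, 255 and 0 with any UMI of 1 class gene, 3451, 4737 and 3235 without cells rich in somatic or spermatid UMIs, 1012, 220 and 858 in CTRL libraries only, 2970, 5814 and 3324 in BU libraries only, and 3051 for the last with no filter. Without 1 library they were 662-3475, 616-5206 and 0-3111, the lowest each without BU 1. Differences in the step from Gfra1+ to Sox3+ and to Kit+ cells between BU and CTRL numbered 3 and 476. They were 0 and 0 with no replicate block or with any UMI of 1 class gene, 122 and 1429 with no filter, 94 and 118 without the rich cells, 266 for the first with all positive cells, and 1-426 and 0-2702 without 1 library. For mitotic-high against mitotic-low cells 3653 genes were called, 61 with no replicate block, 2095 with DESeq2 and 1656-3134 without 1 library. The difference in the share of cells with Mpzl2 was 14.4 percentage points when thinned to 3000 UMIs and that of Epcam 25.5, with 20.6-24.1 and 20.8-33.4 without 1 library.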
